A study of Mus musculus with 9 samples.

Results

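miR-1249 is a microRNA (miRNA) of mouse and human cells, and its mouse hairpin is named mmu-mir-1249. It was described here in B16F1 cells, an established melanoma line from the skin of a C57BL/6J mouse, with small RNA sequencing of 9 libraries. Of these, 3 came from unexposed control cells and 3 from cells that received L-Tyr, the amino acid precursor of melanin, at 5 mM for 72 h. The remaining 3 came from cells that received 5-Brd-2′-dU (BrdU), a thymidine analog that enters DNA, at 2.5 µg/mL over the same 72 h. All groups share the line, the medium and the culture time, and the labels number the libraries without naming separate passages, so p-values measure the spread between these libraries, which may be technical. The count table lists sequence tags under the hairpin to which they were assigned, and the members are its entries for this hairpin, 32 of 6414 entries. They comprise 30 tags and 2 entries that carry only a mature name, miR-1249-5p and miR-1249-3p, and both of these were listed at 0 in every library. miR-1249 was chosen by its measured values in these libraries, namely a higher level with L-Tyr than in control cells and a lower level with 5-Brd-2′-dU than with L-Tyr. Those comparisons are therefore given as descriptions, and tests were run only between 5-Brd-2′-dU and control cells.

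A miRNA is cut from a folded hairpin RNA by the nucleases Drosha and Dicer, which can leave a strand from the 5′ arm (5p) and one from the 3′ arm (3p). The strand that is loaded into an Argonaute protein pairs with messenger RNAs mainly through its seed, the bases just after its 5′ end. A 5′ end that lies even a base away from the annotated one therefore carries another seed, and such sequence forms of the same miRNA are called isomiRs.

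The hairpin and the mature sequence are shown because every tag of miR-1249 falls on the same arm. They are taken from the RefSeq table for GRCm38.p6, which holds a 3p mature sequence for this gene and lists no 5p one. In the hairpin, of 98 nt, capitals mark the mature 3p sequence of 22 nt (bases 58 to 79), and in the mature sequence they mark the seed (bases 2 to 8).
Mir1249 hairpin: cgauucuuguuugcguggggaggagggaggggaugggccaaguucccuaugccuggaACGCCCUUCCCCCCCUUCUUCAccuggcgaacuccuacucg
mmu-miR-1249-3p: aCGCCCUUcccccccuucuuca
The hairpin has 1 exact match in mm9 (NCBIM37), at chr15:84781956-84782053 on the minus strand, with the mature 3p sequence at chr15:84781975-84781996. It lies within 5031439G07Rik, a protein-coding gene on the same strand. In the protein-coding transcripts of the GENCODE vM1 annotation that span it, it is intronic. In 5031439G07Rik-001 and 5031439G07Rik-202 it lies between exons 7 and 8, 1506 bases from the upstream exon and 751 bases from the downstream one. In 5031439G07Rik-201 it lies between exons 8 and 9, 494 and 751 bases from them. In a transcript annotated as a retained intron, the same bases belong to exon 6.

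The tags that hold at least 5% of the counts of the arm are shown next, because they carry 79.9% of all miR-1249 counts and show where the tags start. The letters are those of the count table, with T for U, and capitals mark bases 2 to 8 of each tag. Start 0 is the annotated 5′ end of the mature sequence, and starts 1 and 2 lie that many bases further 3′.
Start 0, 20 nt: aCGCCCTTcccccccttctt
Start 1, 20 nt: cGCCCTTCccccccttcttc
Start 0, 19 nt: aCGCCCTTcccccccttct
Start 2, 20 nt: gCCCTTCCcccccttcttca
Start 2, 19 nt: gCCCTTCCcccccttcttc
Each of these tags has 1 exact match in mm9, at the hairpin. No tag of the table is longer than 20 nt, so the mature sequence of 22 nt cannot appear whole, and whether longer reads were shortened or left out is not given in the sources used here. A tag of 20 nt within the mature sequence can start only at 0, 1 or 2. A start given below is therefore that of the tag, and whether it is the 5′ end of the RNA was not tested.

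The deposited counts ran from 144452 to 424122 per library, so that 3 counts, the upper bound for a tag listed at 0, are worth 7.07 to 20.8 CPM (the count scaled to the total of its library). Values below are CPM scaled by edgeR's TMM factors unless stated otherwise. Intervals of shares (Wilson) cover counting error only, since PCR copies are counted here without molecular identifiers. The interval of a log2 fold change uses the SE of the edgeR fit, which includes the spread between libraries. The melanocytic marker miR-211, from an intron of Trpm1, was found in every library, at 6928 to 26830 CPM over both arms. A list of 8 hairpins of other cell types (stromal, endothelial, erythroid, leukocyte and hepatic) held between 0.109% and 0.797% of the counts in 8 of the libraries and 20.7% in replicate 3 of 5-Brd-2′-dU, where 8 of 8 were above 0. The comparisons of miR-1249 that use that library are given with and without it.

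miR-1249 was read from its 3′ arm alone. Over the 9 libraries its tags held 7633 counts, which is 0.321% of all counts, and the 5p arm had 0 of these, which allows a 5p share of up to 0.0393%. By mean CPM the 3p arm ranked at 60 of 544 arms of known hairpins with a count. Among 116 hairpins with at least 1000 counts, 32 (27.6%) also had an arm at 0, and the median share of the larger arm was 98.7%. The absence of counts from the 5′ arm was thus shared with other abundant hairpins of this table.

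In control cells miR-1249-3p had 408, 993 and 605 counts in replicates 1, 2 and 3, or 1929, 2227 and 2663 CPM. With L-Tyr it had 1367, 1091 and 1939 counts, or 9171, 4264 and 10017 CPM. With 5-Brd-2′-dU it had 355, 408 and 467 counts, or 2048, 918 and 1696 CPM. Every L-Tyr library was above every other library, and replicate 2 was the lowest of its group. The libraries of 5-Brd-2′-dU and of control cells overlapped, since replicate 1 of 5-Brd-2′-dU lay above replicate 1 of the control cells. The group means were 1554 ± 578 CPM (SD, n = 3) with 5-Brd-2′-dU, 2273 ± 369 CPM (SD, n = 3) in control cells and 7818 ± 3106 CPM (SD, n = 3) with L-Tyr. In that order of levels, the lower pair of groups did not differ beyond their spread. Without replicate 3, the mean with 5-Brd-2′-dU was 1483 CPM (n = 2). miR-1249-3p ranked at 70 to 74 among the arms in the control libraries, at 30, 32 and 56 in the L-Tyr libraries and at 74, 87 and 99 in the 5-Brd-2′-dU libraries.

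**Figure D1:**
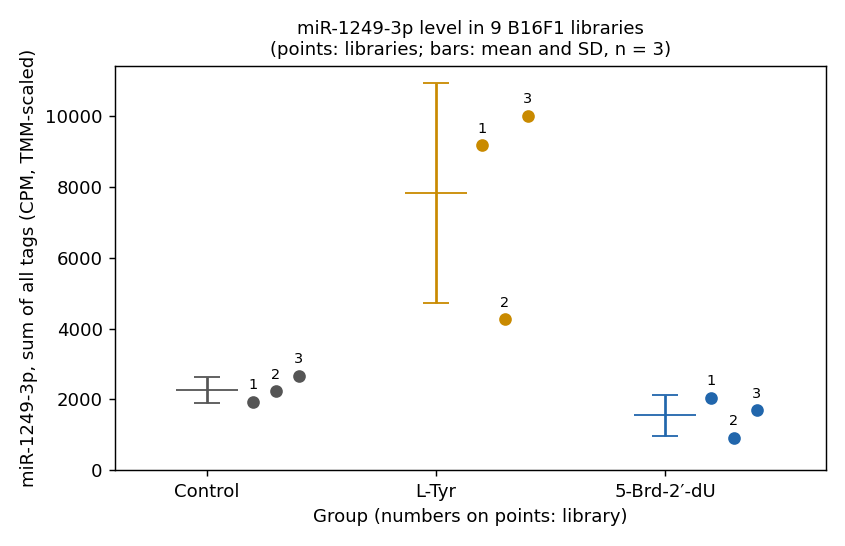
Level of miR-1249-3p (sum of all tags, in TMM-scaled CPM) in each of the 9 libraries, by group; points are libraries with their replicate numbers, and bars give the mean and SD (n = 3). The 3 L-Tyr libraries lie at 4264 CPM and above, and the other 6 lie at 2663 CPM and below, with control and 5-Brd-2′-dU overlapping.

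Relative to control cells, the log2 difference with L-Tyr was 1.76 (SE 0.345), a mean 3.44 times as high. This comparison helped to choose miR-1249, so the value has no test. In it, edgeR's quasi-likelihood test called 2.32% of 259 arms at an adjusted p under 0.05, and in 10% of arms the L-Tyr libraries all lay above the control libraries. Nothing is read from these shares for miR-1249. Without replicate 2 of L-Tyr the difference was 2.03, and without replicate 3 it was 1.50. The other-cell list made up 0.797% of the counts in replicate 2 of L-Tyr, where miR-1249-3p was lowest, against 0.204% and 0.213% in the other L-Tyr libraries. Its part in the result was not tested.

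Relative to L-Tyr, the log2 difference with 5-Brd-2′-dU was −2.27 (SE 0.443), also a description with no test. In that comparison 2.38% of 252 arms were called and 8.73% of arms had all 5-Brd-2′-dU libraries below all L-Tyr libraries. Both comparisons use the same L-Tyr libraries, so their values are not independent. Without replicate 3 of 5-Brd-2′-dU, the library rich in other-cell miRNAs, the difference was −2.38.

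The comparison of 5-Brd-2′-dU with control cells did not choose miR-1249, although its libraries also enter the comparisons above. The log2 fold change of the 3p arm was −0.59 (SE 0.343, 95% interval −1.38 to 0.21), and the adjusted p was 0.393 (edgeR, quasi-likelihood F test, Benjamini-Hochberg over 283 arms). The arm was thus not among the 3.18% of arms called, and the interval includes levels below, equal to and above that of control cells. The value rested largely on replicate 2 of 5-Brd-2′-dU, the lowest of the 9 libraries, without which it was −0.26. Without replicate 3 of 5-Brd-2′-dU it was −0.59.

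The leading tag, which starts at the annotated 5′ end and is 20 nt long, held 47.1% of the miR-1249-3p counts. It had 151, 455 and 166 counts in control cells, 665, 551 and 1000 with L-Tyr, and 198, 166 and 243 with 5-Brd-2′-dU. On average this came to 822 ± 172 CPM (SD, n = 3) in control cells, 3927 ± 1576 CPM with L-Tyr and 799 ± 391 CPM with 5-Brd-2′-dU. The mean level with 5-Brd-2′-dU was thus close to that of control cells, and the log2 fold change of −0.09 had an SE of 0.453 (adjusted p = 0.962, edgeR over 1488 tags). It was −0.20 without replicate 3 of 5-Brd-2′-dU. The tag of 20 nt at start 2, which runs to the last base of the mature sequence, showed another balance. It had 40, 60 and 71 counts in control cells, 175, 109 and 87 with L-Tyr, and 14, 26 and 22 with 5-Brd-2′-dU. Its level was 212 ± 91.2 CPM (SD, n = 3) in control cells and 73.1 ± 12.6 CPM with 5-Brd-2′-dU, without overlap between these libraries, and the log2 fold change of −1.55 had an SE of 0.878 (adjusted p = 0.642, edgeR), or −1.63 without replicate 3 of 5-Brd-2′-dU.

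The tag of 20 nt at start 1 had 53, 79 and 65 counts in control cells, 124, 86 and 227 with L-Tyr, and 26, 41 and 47 with 5-Brd-2′-dU. It had 238 ± 55.6, 780 ± 421 and 138 ± 40.6 CPM (SD, n = 3) in these groups, and the 5-Brd-2′-dU libraries again lay below the control libraries. Of the tags of 19 nt, the one at start 0 had 240 ± 105, 581 ± 237 and 185 ± 106 CPM (SD, n = 3) in control cells, with L-Tyr and with 5-Brd-2′-dU. The one at start 2 had 214 ± 155, 364 ± 160 and 115 ± 49.4 CPM (SD, n = 3), and in both tags the 5-Brd-2′-dU and control libraries overlapped. Without replicate 3, the means with 5-Brd-2′-dU were 121 CPM for the tag of 20 nt at start 1, 177 CPM for that of 19 nt at start 0 and 98.5 CPM for that of 19 nt at start 2.

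**Figure D2:**
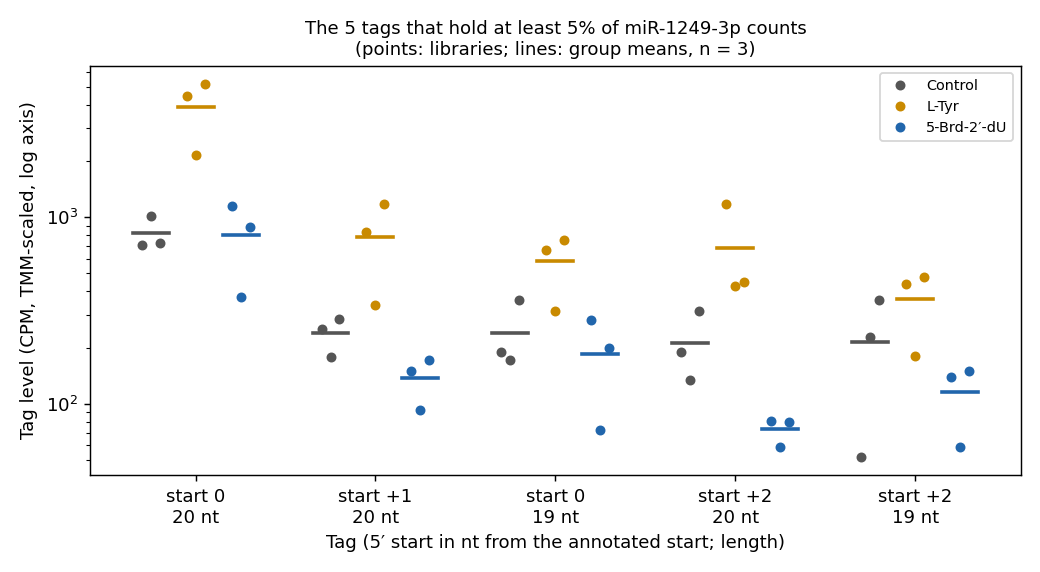
Level of each of the 5 most abundant miR-1249-3p tags (TMM-scaled CPM, log axis), named by the 5′ start in nt from the annotated start and by length; points are libraries and lines are group means (n = 3). The tag at start 0 of 20 nt averages 822 CPM in control cells and 799 CPM with 5-Brd-2′-dU, while for the tag of 20 nt at start 2 these means are 212 and 73.1 CPM.

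Of the 30 tags, 11 passed the filter between 5-Brd-2′-dU and control cells, and edgeR's quasi-likelihood fit called 0 of them, where 0% of 1488 tags were called. None of the 11 reached an unadjusted p under 0.05 in edgeR (0 tags). DESeq2's Wald test, run on all 30 tags with its own filter, gave 9 of the 30 an adjusted p and called 0. In that test 1 of the 30 had an unadjusted p under 0.05. All 11 fitted values were below 0, from −2.65 to −0.09, with a median of −0.81 beside −0.01 for all tags tested. A tag can pass the filter by its counts in either group alone, and a tag counted mainly in control cells then has a value below 0. The lowest value belongs to the tag of 19 nt at start 3, with 12, 61 and 55 counts in control cells. With 5-Brd-2′-dU that tag had 0, 7 and 14 counts. The signs are therefore not read as a result. Without replicate 3 of 5-Brd-2′-dU, 10 of 11 tested tags were below 0 and the values ran from −4.04 to 0.33. The value of −4.04 is that of the tag of 17 nt at start 5. It had 6, 24 and 16 counts in control cells and 0 and 2 in the 5-Brd-2′-dU libraries kept, and was not tested in this comparison with all libraries. The tag of 19 nt at start 1 changed sign from −0.20 (SE 1.47) to 0.33 (SE 1.60). The tested tags come from the same libraries and the same hairpin, so they are not separate evidence of a direction. Among the 10 miR-1249 tags with a mean count of at least 10, 4 had all 5-Brd-2′-dU libraries below all control libraries, which occurred in 8.57% of the 1564 entries at that depth. Those 4 tags start at positions 1, 2, 3 and 4, and none of them starts at the annotated position. Of the 10, however, only the tags of 20 nt and 19 nt at start 0 have the annotated start. No split by start is read from these tags. The count was also 4 without replicate 3 of 5-Brd-2′-dU, beside 12.4% of entries. With L-Tyr, 5 of the 10 lay entirely above the control libraries (7.35% of entries), and 8 of the 10 lay entirely lower with 5-Brd-2′-dU than with L-Tyr (5.88% of entries). The last 2 counts belong to the comparisons that chose miR-1249, and nothing is read from them.

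By 5′ start, the tags fell into 8 classes, from 1 base upstream of the annotated position to 6 bases downstream. The annotated start held 57.7% of all miR-1249-3p counts in 9 tags, start 1 held 12.8% in 5 tags and start 2 held 16.6% in 6 tags. Starts 3 and 4 held 4.93% and 4.85%, start 5 held 2.19%, start 6 held 0.524% and the upstream start 0.445%. Each class has its own bases 2 to 8. The annotated start gives CGCCCUU, which among the 1738 mature mouse sequences of the RefSeq table is carried by miR-1249-3p alone, while start 1 gives GCCCUUC and start 2 gives CCCUUCC. None of the shifted forms has bases 2 to 8 that match those of a listed mature miRNA (0 sequences).

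The share of counts at the annotated start was 49.3% (95% Wilson interval 44.4% to 54.1%), 54.2% (51.1% to 57.3%) and 44.6% (40.7% to 48.6%) in control replicates 1, 2 and 3. With 5-Brd-2′-dU it was 69.9% (64.9% to 74.4%), 54.4% (49.6% to 59.2%) and 64.5% (60.0% to 68.7%). All 3 of these libraries lay above the control libraries, but replicate 2 of 5-Brd-2′-dU and replicate 2 of the control cells had nearly the same share. The means were 62.9% ± 7.84 (SD, n = 3) and 49.4% ± 4.78 (SD, n = 3), a difference of 13.6 percentage points. An exact permutation test, two-sided, returned p = 0.1, which is the lowest value open to 3 libraries against 3, so this design could not reach 0.05. Without replicate 3 of 5-Brd-2′-dU the difference was 12.8 percentage points. With L-Tyr the share was 56.8%, 61.0% and 60.9%, or 59.6% ± 2.36 (SD, n = 3), given as a description.

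**Figure D3:**
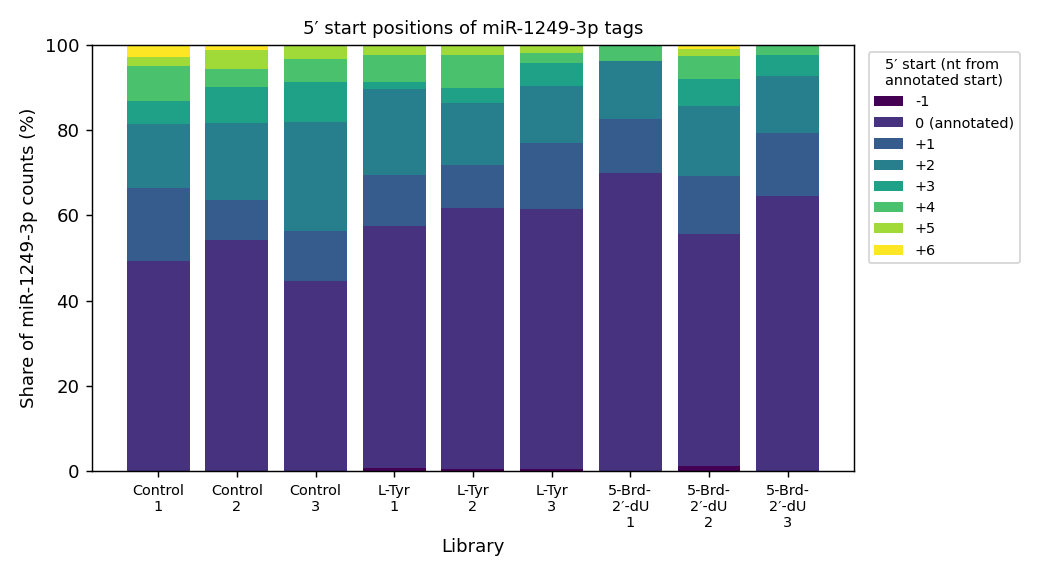
Share of the miR-1249-3p counts in each library (%) by 5′ start of the tag, in nt from the annotated start. The annotated start takes between 44.6% and 54.2% in the control libraries, between 56.8% and 61.0% with L-Tyr and between 54.4% and 69.9% with 5-Brd-2′-dU, and starts 1 and 2 are the next largest in every library.

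As levels, tags with the annotated start and tags with another start gave different pictures. At the annotated start the control libraries had 950, 1207 and 1189 CPM and the 5-Brd-2′-dU libraries 1431, 500 and 1093 CPM, so that they overlapped. At all other starts together the control libraries had 979, 1020 and 1475 CPM and the 5-Brd-2′-dU libraries 617, 419 and 603 CPM, without overlap. The mean with 5-Brd-2′-dU was 90.4% of the control mean at the annotated start and 47.2% at the other starts. By single position it was 74.2% at start 1, 47.8% at start 2, 26.4% at start 3 and 43.0% at start 4. It was 6.95% at start 5 and 10.5% at start 6, where only replicate 2 of 5-Brd-2′-dU had counts. These were 2 and 5 in the 2 tags at start 5, and 4 in the tag at start 6, which held 40 counts over the 9 libraries. These tags match mm9 at 2, 8 and 5 places. Without replicate 3 of 5-Brd-2′-dU, the mean was 86.6% of the control mean at the annotated start and 44.7% at the other starts together. With L-Tyr the mean was 4.16 times the control mean at the annotated start and 2.75 times at the other starts. The split between annotated and other starts was made after the values were seen, and it has no test beyond that of the shares.

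The leading tag alone held 37.0%, 45.8% and 27.4% of miR-1249-3p in control cells and 55.8%, 40.7% and 52.0% with 5-Brd-2′-dU, so these libraries overlapped. The difference between the means was 12.7 percentage points (exact two-sided permutation test, p = 0.2). Tags of 20 nt, the longest listed, held 60.5%, 60.2% and 50.1% in control cells and 67.0%, 60.8% and 70.9% with 5-Brd-2′-dU. Their means differed by 9.29 percentage points (exact two-sided permutation test, p = 0.1, again the smallest possible). These differences were 11.5 percentage points for the leading tag and 6.97 for tags of 20 nt without replicate 3 of 5-Brd-2′-dU. With L-Tyr the shares ran from 48.6% to 51.6% for the leading tag and from 69.3% to 71.5% for tags of 20 nt. In each of these shares replicate 3 of the control cells was the lowest of the 9 libraries.

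The 3′ end was read from the 23 tags that match the hairpin to their last base. Tags that stop 2 bases short of the mature 3′ end held 51.0% of the counts, those 1 base short held 20.6%, and those that reach the last base held 15.8%. Because of the limit of 20 nt, a tag can reach the last base only from start 2 or further. The tags that reach it held 21.1%, 18.6% and 25.1% of the arm in control cells, 20.4%, 16.7% and 11.2% with L-Tyr, and 3.94%, 10.5% and 10.1% with 5-Brd-2′-dU. The 5-Brd-2′-dU libraries thus lay below the other 6, a description chosen after the values were seen. In replicate 1 of 5-Brd-2′-dU, the lowest of them, no tag that starts at position 3 or 5 was counted (0 counts).

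The other 7 tags end in bases that the hairpin does not have at that place, as non-templated ends of a miRNA do, though a sequencing error cannot be told apart from them. The most abundant, with 49 counts in 4 libraries, is shown with its last base differing from the hairpin and capitals at bases 2 to 8.
Start 2, 20 nt, added T: gCCCTTCCcccccttcttct
Of its counts, 39 came from replicate 3 of L-Tyr. The other 6 end in added A or AA, with 5 to 28 counts each. These 7 tags have no exact match in mm9 (0 matches) and hold 125 counts, 1.64% of the arm. A further 8 tags, of 14 to 18 nt, match mm9 at up to 10 places and hold 6.76% of the counts, and their origin is uncertain. The 15 tags with 1 match hold 91.6%. No tag of miR-1249 is listed under another hairpin (0 tags).

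The share of counts at the commonest 5′ start of miR-1249-3p was above the median of the arms in the table, by a margin that differed with the group. Counts were first pooled over all libraries, and L-Tyr gave 4397 of the 7633 for miR-1249. Among 132 arms of known hairpins with at least 1000 counts, the share at the commonest start had a median of 39.1%, and miR-1249-3p, with 57.7%, ranked at 108 from the lowest. Among the 61 such 3p arms the median was 44.5% and miR-1249-3p ranked at 48. As a mean of library shares, miR-1249-3p ranked at 94 of 127 arms in control cells (49.4% against a median of 36.4%), at 106 of 127 with L-Tyr (59.6% against 39.6%) and at 111 of 131 with 5-Brd-2′-dU (62.9% against 39.7%), with each arm's start taken from all libraries. Its 8 start positions compare with a median of 6. The share of counts in tags of 20 nt was 66.5% against a median of 59.8% over the same arms. Arms of related hairpins share tags, so these ranks are a description of the table.

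**Figure D4:**
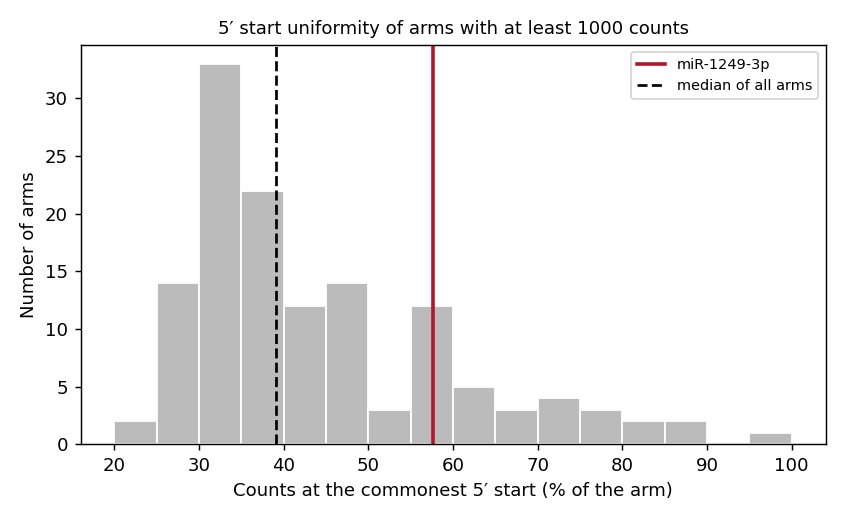
Number of arms by the share of their counts at the commonest 5′ start (%), for the 132 arms of known hairpins with at least 1000 counts over the 9 libraries; the solid line marks miR-1249-3p and the dashed line the median. miR-1249-3p lies at 57.7%, above the median of 39.1%.

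The arms whose pattern over the 9 libraries was most like that of miR-1249-3p were sought among 172 arms with a mean count of at least 50, by Pearson's r of log2 CPM. All points share the libraries and their scaling, and r is given without a test. The nearest was miR-211-5p (r = 0.87), the melanocytic marker, followed by miR-501-3p (0.84), miR-149-5p (0.83), miR-423-3p (0.83) and miR-151-3p (0.82). In miR-211-5p the control mean was 12667 ± 3091 CPM (SD, n = 3), followed by 22868 ± 2724 CPM with L-Tyr and 6980 ± 414 CPM with 5-Brd-2′-dU. Its mean was thus ordered like that of miR-1249-3p, with 5-Brd-2′-dU lowest and L-Tyr highest, as were those of miR-501-3p and miR-149-5p. These arms were picked by their likeness to miR-1249-3p, itself chosen for its level with L-Tyr, so a high L-Tyr mean follows from the choice. For miR-1249-3p, 5-Brd-2′-dU and control cells did not differ beyond their spread. Nothing is read from this order. miR-501-3p had 1275 ± 479, 1975 ± 423 and 817 ± 121 CPM and miR-149-5p had 2603 ± 393, 4398 ± 527 and 2444 ± 624 CPM (SD, n = 3), in the order control cells, L-Tyr, 5-Brd-2′-dU. miR-423-3p and miR-151-3p were also highest with L-Tyr, at 8634 ± 2208 and 20638 ± 5915 CPM. In control cells these had 5472 ± 1303 and 12696 ± 2811 CPM, and with 5-Brd-2′-dU 5857 ± 958 and 14065 ± 3980 CPM (SD, n = 3). The passenger arm miR-211-3p had 1183 ± 303, 2337 ± 111 and 343 ± 92.1 CPM (SD, n = 3) in the same order of groups.

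**Figure D5:**
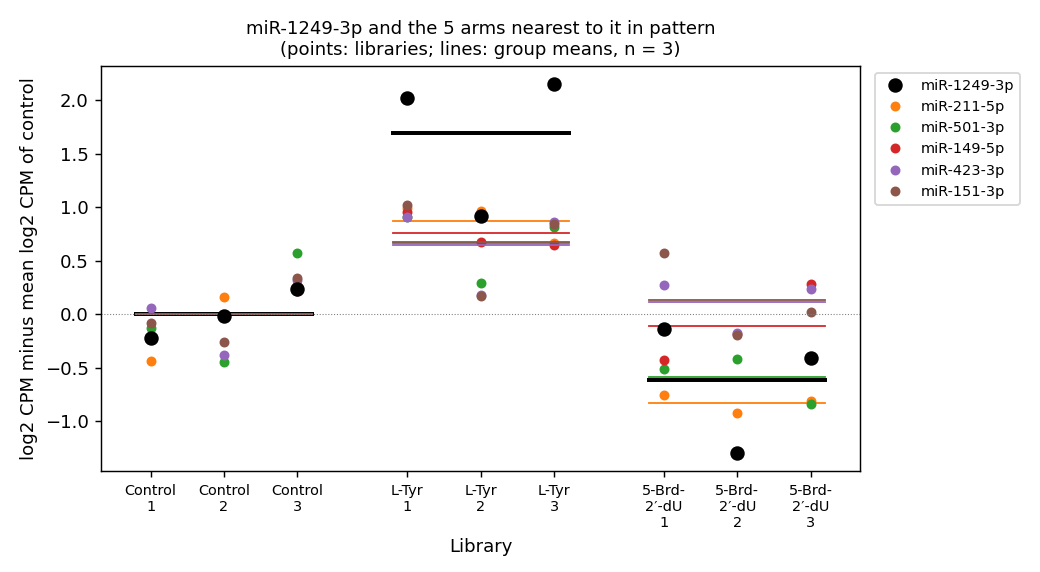
log2 CPM of miR-1249-3p (black) and of the 5 arms nearest to it in pattern, each minus its own mean in control cells; points are libraries and lines are group means (n = 3). miR-1249-3p lies above the other 5 in replicates 1 and 3 of L-Tyr, and replicate 2 of L-Tyr lies close to miR-211-5p, while with 5-Brd-2′-dU the lowest point is miR-1249-3p in replicate 2.

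Of the comparators, miR-129-2-3p, from a hairpin whose 5p arm gives the same mature sequence as that of miR-129-1, had 1102 ± 323 CPM in control cells (SD, n = 3), 4970 ± 2011 CPM with L-Tyr and 3408 ± 40.3 CPM with 5-Brd-2′-dU. With L-Tyr its libraries had 6347, 2662 and 5900 CPM, so that replicate 2 was the lowest, as for miR-1249-3p. Replicate 2 of L-Tyr was also the lowest for miR-129-1-3p, at 352 CPM. It was the highest for miR-129-1-5p and miR-129-2-5p, at 6305 and 6641 CPM, and not the lowest for miR-211-5p, miR-149-5p or miR-30d-5p. Among the nearest arms named above, replicate 2 was also the lowest L-Tyr library for miR-501-3p, miR-423-3p and miR-151-3p, at 1493, 6090 and 14029 CPM. With 5-Brd-2′-dU miR-129-2-3p was higher than in control cells (log2 fold change 1.60, SE 0.290, with an adjusted p of 0.0236 in edgeR), and without replicate 3 of 5-Brd-2′-dU the change was 1.66 (adjusted p = 0.0368, edgeR). The difference between miR-129-2-3p and miR-1249-3p was not tested. miR-30d-5p, from the same chromosome as miR-1249, had 21200 ± 1478, 42783 ± 2658 and 27324 ± 5561 CPM (SD, n = 3) in control cells, with L-Tyr and with 5-Brd-2′-dU.

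Chromosome 15 holds 49 miRNA genes in the RefSeq table, matched by name, of which 16, Mir1249 included, had a count. The 15 others gave 20 arms with a count. Between L-Tyr and control cells, 1 of 13 tested arms was called higher, miR-30d-5p (log2 fold change 0.97, SE 0.143, with an adjusted p of 0.0101 in edgeR), and 0 were called lower, beside 2.32% of all arms called. Between 5-Brd-2′-dU and control cells, 0 of 12 were called beside 3.18% of all arms, with a median log2 fold change of 0.09 beside −0.09 for all arms. Relative to L-Tyr, 0 of 11 were called with 5-Brd-2′-dU, beside 2.38% of all arms. At these shares, nothing is read from so few arms. The arms nearest to miR-1249 that passed the filter belong to let-7c-2 and let-7b, 754980 and 755696 bases away in mm9. let-7b-3p had 1984 ± 1199 CPM in control cells (SD, n = 3), 2612 ± 1188 CPM with L-Tyr and 4618 ± 1050 CPM with 5-Brd-2′-dU. Its L-Tyr and control libraries overlapped, and the log2 fold change with 5-Brd-2′-dU was 1.19 (SE 0.462, with an adjusted p of 0.215 in edgeR). let-7b-5p, the main arm of that hairpin, had 27089 ± 6521, 25193 ± 2242 and 29016 ± 10801 CPM (SD, n = 3) in control cells, with L-Tyr and with 5-Brd-2′-dU. let-7c-2-5p, whose tags are also listed under the other let-7c hairpin, had 34419 ± 8267, 26705 ± 619 and 26800 ± 10287 CPM (SD, n = 3), and let-7c-2-3p had 93.7 ± 74.2, 92.4 ± 95.7 and 130 ± 18.8 CPM (SD, n = 3). The libraries of these let-7 arms overlapped between control cells and L-Tyr.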

How the data were processed

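Small RNA libraries of 9 samples were grouped by their labels. The table deposited by the authors holds raw counts; per their methods, reads between 17 and 35 nt were assigned in BaseSpace (Small RNA app 1.0) against mm9 and miRBase 21. The authors' size-factor values and their comparison tables (fold changes and p-values) were not used. Tags were summed by hairpin and arm (start number under 35 as 5p) over all 6414 entries. Fits used edgeR 4.0.16 (TMM, filterByExpr, quasi-likelihood F test, group only) in R 4.3.3 on the 6 libraries of each comparison, with Benjamini-Hochberg adjustment over all features, after a test on simulated data. Shares were compared by exact permutation in scipy 1.17.1, and intervals of shares are Wilson's at 95%. The interval of the log2 fold change, also at 95%, uses the SE of the edgeR fit. Patterns were compared on log2 CPM (prior count 2). Named tags hold at least 5% of the arm; the 5 nearest arms and the 4 nearest arms on chromosome 15 were named by rule, with miR-211, miR-129 and miR-30d as comparators. Members and lists were chosen with earlier results of these data known. Alternatives included DESeq2 1.42.0, other scalings and filters, a replicate block and leaving out each library, and tags with 1 genome match were added after seeing the data.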

Additional observations from a re-analysis of the deposited data

How the results depend on the processing

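The log2 fold change of miR-1249-3p between 5-Brd-2′-dU and control cells stayed below 0 and uncalled under all 18 alternatives, with adjusted p from 0.309 to 0.962 in edgeR or DESeq2. Leaving out single libraries moved it between −0.77 and −0.26, and it was −0.09 with the most abundant tag in place of the sum. The value with only tags that match mm9 once, chosen after seeing the data, was −0.45. The difference of L-Tyr from control cells ran from 1.64 to 2.16 (1.50 to 2.03 with a library left out), and that of 5-Brd-2′-dU from L-Tyr from −2.53 to −2.23 (−2.66 to −1.997). Differences in share, in percentage points with a library left out, ran from 8.08 to 17.3 for the leading tag, from 10.1 to 17.8 for the annotated start and from 5.85 to 12.0 for tags of 20 nt; with tags of at least 17 nt they were 11.6, 13.4 and 7.50. Of the member tags 0 were called under any alternative. The 5p share has no alternative value, since the 5p arm had 0 counts. Of the 5 nearest arms, 2 were among the first 5 by Spearman's rho, and 3 to 5 with a library left out (3 without replicate 3 of L-Tyr or replicate 2 of 5-Brd-2′-dU); the cause was not tested. Deviations of same-numbered libraries had r from −0.20 to 0.11 over 3 pairs of groups, and those of differently numbered ones from −0.14 to 0.21. With n = 3 per group, these values cannot settle whether the numbers pair the libraries. A replicate block gave −0.65 for 5-Brd-2′-dU against control cells, 1.66 for L-Tyr against control cells and −2.23 between the exposures. In that order, the SE was 0.366, 0.294 and 0.194 with the block and 0.343, 0.345 and 0.443 without it. With the block, 0 member tags were called. At 355 to 1939 counts per library, single tags under about 10 counts allow no comparison.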
